A study of Mus musculus with 12 samples.

Results

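Matrix metalloproteinases, their relatives with thrombospondin repeats (ADAMTS) and their tissue inhibitors (TIMP) were followed in endothelial cells, which line blood vessels, and in osteoblasts, the bone-forming cells, sorted from mouse long bones with and without a growing human breast cancer. All genes annotated with 1 symbol of the form Mmp, Adamts or Timp plus a number were taken, by name and not by any measured value. They are 44 of 19937 genes on the array, 18 Adamts, 22 Mmp and 4 Timp genes. Of these, 28 passed the filter on dim genes and were tested (11 Adamts, 13 Mmp and 4 Timp), and 16 were not.

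The mice were female NOD SCID animals, an immunodeficient strain, of no stated age. Into the heart of the tumor-bearing mice 200000 MDA-MB-231 scp1833 cells, of a human breast cancer line, had been injected, and tumors in the long bones were followed for about 2 weeks. The 4 groups are endothelial cells of tumor-bearing mice, endothelial cells of tumor-free mice, osteoblasts of tumor-bearing mice and osteoblasts of tumor-free mice, each with 3 arrays labelled as biological replicates. All bones were ground and digested with collagenase and dispase. Endothelial cells were sorted as SCA1+ CD31+ and osteoblasts as SCA1- CD31- CD51+, in each case without GFP, CD45 or the marker written TR119. A human line in mice without adaptive immunity limits the model, and whether the tumor-free mice had been injected, or whether an array pools several mice, is not stated. Values are log2 expression, so that a difference of 1 is a 2-fold difference, and the level of one probe set is not compared with that of another.

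Together these genes encode much of the machinery that cuts extracellular matrix. Metalloproteinases are zinc enzymes made as inactive precursors; collagenases open fibrillar collagen, gelatinases and stromelysins cut what is unfolded or non-fibrillar, and the membrane-type enzymes act at the cell surface. ADAMTS enzymes trim proteoglycans such as aggrecan and versican or remove the propeptides of procollagens, and TIMPs bind the active enzymes and block them.

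Cell markers separated the endothelial from the osteoblast arrays. All 9 endothelial markers tested were higher in endothelial cells, and all 8 osteoblast markers lower there, in tumor-bearing and in tumor-free mice alike. Of 12 chondrocyte markers, 12 were lower too in endothelial cells of tumor-bearing and 10 in those of tumor-free mice. The cells sorted as osteoblasts thus also carried cartilage transcripts. Replicate arrays correlated at 0.977 to 0.986 in the endothelial groups and at 0.957 to 0.975 in osteoblasts of tumor-bearing mice, but at 0.875 to 0.932 in osteoblasts of tumor-free mice. In that last group replicate 1 stood apart, with a mean of 8.82 over 8 osteoblast markers against 10.22 and 9.70 on replicates 2 and 3, and of 5.17 against 8.48 and 8.24 over 11 macrophage markers. The median SD of a tested member was 0.144 and 0.151 in endothelial cells of tumor-bearing and tumor-free mice, and 0.248 and 0.318 in osteoblasts of tumor-bearing and tumor-free mice. Each group has 3 arrays, and this number limits the precision.

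Set against osteoblasts, endothelial cells had lower Mmp2, Mmp13, Mmp16 and Timp1 and higher Adamts1, Adamts4 and Adamts5 in both kinds of mice. In tumor-bearing mice 11 of the 28 tested members passed the threshold (limma adjusted p under 0.05), 4 higher and 7 lower in endothelial cells. Of all genes tested, 14.9% passed in that comparison, 8.13% higher and 6.79% lower. In tumor-free mice 11 passed as well, again 4 higher and 7 lower, beside 31.0% of all genes, 18.2% higher and 12.7% lower. Over all 44 members, dim ones included, the median difference was -0.14 in tumor-bearing and -0.32 in tumor-free mice, against -0.02 and -0.21 over all genes. By family, 0 of 13 tested Mmp genes were higher in endothelial cells and 4 were lower in each comparison, while 3 of 11 Adamts genes were higher and 2 lower in each. Mmp16, Mmp3, Adamts8 and Adamts14, counted among the lower in 1 or both comparisons, lay above the array median only on osteoblast arrays. They were tested only through the cell type where they were high, so the counts of lower genes are no test of a family. These are bulk samples, in which fewer cells of a type and less RNA per cell cannot be told apart.

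Mmp13, the collagenase of mouse bone and cartilage, stood at 6.83, 6.93 and 5.78 in the endothelial cells of tumor-bearing mice, against 11.35, 10.57 and 9.70 in osteoblasts of those mice. In tumor-free mice it stood at 6.99, 6.11 and 6.21 in endothelial cells and at 8.97, 11.50 and 11.64 in osteoblasts. Every endothelial array thus lay below every osteoblast array. The difference was -4.03 ± 0.67 (SE), or 16.3-fold lower, in tumor-bearing mice (limma adjusted p = 0.00191) and -4.27 ± 0.67, or 19.3-fold lower, in tumor-free mice (adjusted p = 0.00121). Without osteoblast replicate 1 of the tumor-free mice the second value was 35.2-fold.

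Mmp16, a membrane-type metalloproteinase, was 11.0-fold lower in the endothelial cells of tumor-bearing mice (log2 difference -3.45 ± 0.37, adjusted p = 8.75e-05) and 10.7-fold lower in those of tumor-free mice (-3.42 ± 0.37, adjusted p = 8.60e-05). Its endothelial values lay between 4.12 and 4.42, below the median of each of these 6 arrays (5.21 to 5.41 over all 12 arrays). The gene was thus tested through its osteoblast arrays, and these folds are set against dim values. In osteoblasts it read 8.41, 7.54 and 7.13 in tumor-bearing and 6.88, 8.32 and 7.83 in tumor-free mice, so the cell types were fully separated. Mmp2, gelatinase A, read 5.92, 5.78 and 6.08 in the endothelial cells of tumor-bearing mice and 9.08, 9.47 and 9.08 in osteoblasts of the same mice. That is 9.76-fold lower (-3.29 ± 0.35, adjusted p = 9.33e-05). In tumor-free mice Mmp2 read 5.99, 5.88 and 6.41 in endothelial cells and 7.56, 9.29 and 8.56 in osteoblasts, 5.21-fold lower (adjusted p = 0.000809). The mean over 5 fibroblast and reticular stroma markers moved with these genes, between 5.85 and 6.90 on the endothelial and between 8.87 and 10.48 on the osteoblast arrays. Of the 5, 2 passed as lower in endothelial cells of tumor-bearing mice (Lum and Dcn) and 4 in those of tumor-free mice. The shares of all genes tested were 6.79% and 12.7%. The mean over 12 chondrocyte markers moved likewise, between 5.46 and 6.30 on the endothelial and between 6.60 and 10.05 on the osteoblast arrays. The part of these markers in the differences was not tested.

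Mmp3, stromelysin-1, which also activates other metalloproteinase precursors, read 4.18, 4.54 and 4.03 in the endothelial cells of tumor-bearing mice, against 7.21, 6.83 and 4.56 in osteoblasts of those mice. Osteoblast replicate 3 was thus close to the endothelial level. Mmp3 lay above the array median on 3 arrays, all of osteoblasts, so its folds too are set against dim values. The gene passed in tumor-bearing mice at 3.86-fold lower (-1.95 ± 0.57, adjusted p = 0.0415). It was 6.82-fold lower without that osteoblast replicate. The call ended without osteoblast replicate 1 or 2 of those mice or without any 1 of the 6 endothelial arrays (adjusted p up to 0.158). It also ended with quantile normalization (0.0535), median centring (0.0510), no filter (0.0618) and only the groups compared (0.0665). In tumor-free mice, where endothelial cells read 3.97, 4.29 and 3.98 and osteoblasts 5.51, 4.27 and 4.69, it did not pass. Mmp23, a membrane-bound member of the family without the hemopexin domain of most others, was 2.15-fold lower in endothelial cells of tumor-free mice (-1.10 ± 0.24, adjusted p = 0.00777). There it read 5.70, 5.87 and 5.70, against 6.62, 6.74 and 7.22 in osteoblasts. It did not pass in tumor-bearing mice.

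Mmp9, gelatinase B, a product of osteoclasts and neutrophils, did not pass in either comparison although the groups did not overlap. It read 4.89, 5.26 and 4.43 in the endothelial cells of tumor-bearing mice and 9.75, 6.68 and 5.87 in osteoblasts of those mice (-2.57 ± 0.91, adjusted p = 0.0905). The tumor-free arrays read 4.87, 5.05 and 5.27 in endothelial cells and 5.58, 8.02 and 8.38 in osteoblasts (-2.26 ± 0.91, adjusted p = 0.0799). Its values thus spread widely among osteoblasts. Mmp14, membrane type 1, which activates the Mmp2 precursor at the cell surface, showed no separation. Endothelial cells read 8.17, 8.05 and 8.60 in tumor-bearing and 8.38, 8.95 and 8.84 in tumor-free mice, and osteoblasts 8.85, 8.06 and 8.11 in tumor-bearing and 6.53, 8.93 and 8.72 in tumor-free mice.

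**Figure D1:**
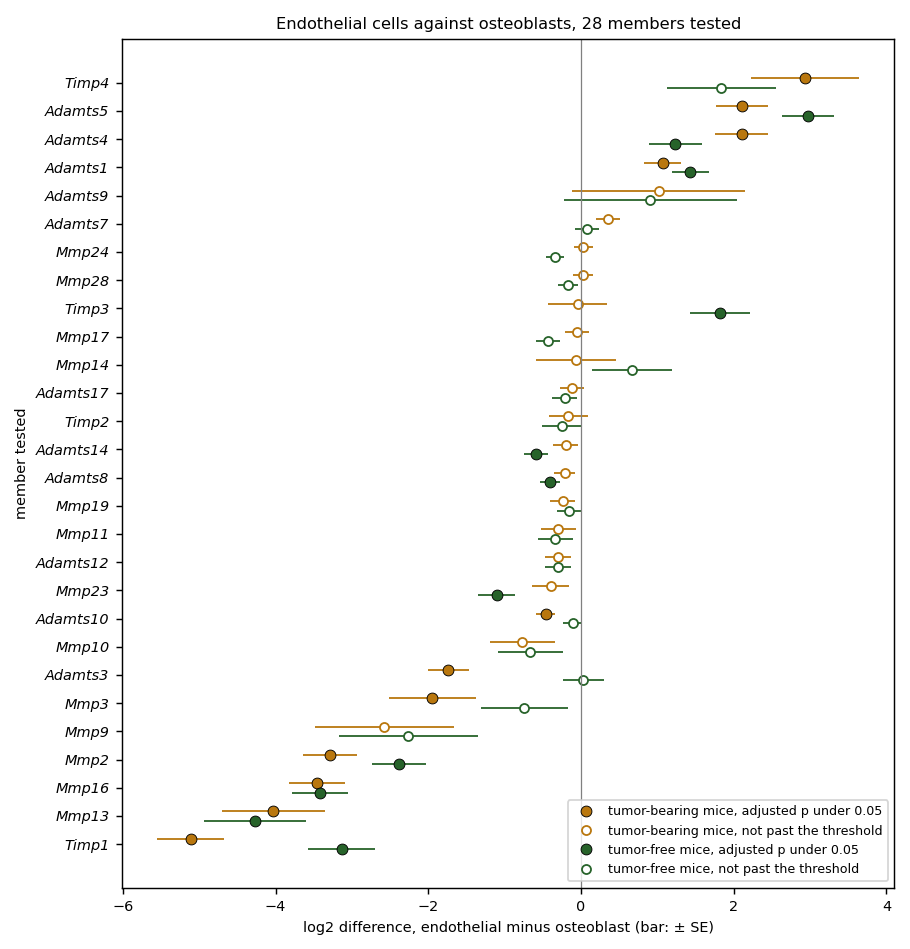
Log2 difference of endothelial cells minus osteoblasts (x axis, bar ± SE) for each of the 28 tested members (y axis), in tumor-bearing mice (brown) and in tumor-free mice (green), with filled points past the threshold. Adamts1, Adamts4 and Adamts5 lie right of 0 and Timp1, Mmp13, Mmp16 and Mmp2 left of it, past the threshold in both kinds of mice.

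Mmp13, Mmp3 and Mmp10 (stromelysin-2) belong to a run of 10 members that lie next to each other on mouse chromosome 9, in the order Mmp13, Mmp12, Mmp1b, Mmp3, Mmp1a, Mmp10, Mmp8, Mmp27, Mmp20 and Mmp7. These 3 were tested, and the other 7 genes of the run were too dim to be. The 250 bases before the RefSeq start (GRCm38.p6) of these 3 tested genes are shown because the run differs from the other members in the letters found there. Mmp13 is at chr9:7272264-7272513, Mmp3 at chr9:7445572-7445821 and Mmp10 at chr9:7502092-7502341, all on the plus strand. Capitals mark matches to TGANTCA, the binding motif of AP-1 (Fos and Jun proteins), and to TATAAA, the element bound by TBP in many promoters.
Mmp13: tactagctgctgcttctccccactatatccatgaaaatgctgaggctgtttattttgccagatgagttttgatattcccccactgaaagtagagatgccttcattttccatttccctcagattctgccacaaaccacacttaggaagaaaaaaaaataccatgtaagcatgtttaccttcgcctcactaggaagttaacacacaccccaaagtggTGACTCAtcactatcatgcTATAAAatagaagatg
Mmp3: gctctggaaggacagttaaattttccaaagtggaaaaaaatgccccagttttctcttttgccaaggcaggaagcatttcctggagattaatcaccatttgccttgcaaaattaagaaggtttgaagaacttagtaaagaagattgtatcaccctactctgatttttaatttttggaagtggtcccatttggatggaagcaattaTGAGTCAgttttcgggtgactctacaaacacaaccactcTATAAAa
Mmp10: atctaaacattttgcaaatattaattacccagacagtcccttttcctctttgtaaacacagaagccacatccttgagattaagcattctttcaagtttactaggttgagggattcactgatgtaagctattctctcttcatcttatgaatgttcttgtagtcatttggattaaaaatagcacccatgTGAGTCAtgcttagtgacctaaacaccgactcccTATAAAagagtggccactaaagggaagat
The AP-1 match starts 35, 46 and 63 bases before the start of Mmp13, Mmp3 and Mmp10. Of 44 members 30 had an entry in the promoter table. Searched on both strands, TGANTCA was found in 8 of the 10 genes of the run, in 0 of the other 20 members and in 6.75% of 32851 windows of the same length. TATAAA was found in 7 of the 10, in 2 of the 20 (Adamts1 and Mmp21) and in 12.4% of windows. GGGCGG, a GC box, was found in 0 of the 10, in 14 of the 20 and in 32.7% of windows. These are matches of letters, and no binding was measured.

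Among the ADAMTS genes, Adamts5, Adamts4 and Adamts1 were higher in endothelial cells in both kinds of mice. Adamts5, the main aggrecanase of mouse cartilage, read 10.39, 10.42 and 10.19 in the endothelial cells of tumor-bearing mice against 8.70, 8.43 and 7.55 in osteoblasts of those mice, 4.32-fold higher (2.11 ± 0.34, adjusted p = 0.00160). In tumor-free mice it read 10.74, 10.99 and 10.87 in endothelial cells and 7.16, 8.51 and 8.01 in osteoblasts, 7.84-fold higher (2.97 ± 0.34, adjusted p = 0.000155). All endothelial arrays were above all osteoblast arrays. Adamts4, another aggrecanase, was 4.31-fold higher in tumor-bearing mice (2.11 ± 0.35, adjusted p = 0.00178) and 2.35-fold higher in tumor-free mice (1.23 ± 0.35, adjusted p = 0.0230). It read 8.58, 8.84 and 8.71 in the endothelial cells and 6.72, 6.71 and 6.36 in the osteoblasts of tumor-bearing mice. The tumor-free arrays read 8.57, 7.08 and 6.98 in endothelial cells and 6.38, 6.09 and 6.45 in osteoblasts, with endothelial replicate 1 far above the other replicates. The tumor-free call ended without osteoblast replicate 2 of the tumor-free mice (adjusted p = 0.0546). It also ended with quantile normalization (0.0545), weights per array (0.102), weights per group (0.107) and only the groups compared (0.101).

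Adamts1, which cuts versican and aggrecan and lies next to Adamts5 on chromosome 16, was 2.10-fold higher in the endothelial cells of tumor-bearing mice (1.07 ± 0.24, adjusted p = 0.0108) and 2.70-fold higher in those of tumor-free mice (1.43 ± 0.24, adjusted p = 0.00173). Adamts3, which removes the amino-terminal propeptide of procollagens and takes part in activating VEGF-C, was 3.33-fold lower in the endothelial cells of tumor-bearing mice (-1.74 ± 0.27, adjusted p = 0.00134). In tumor-free mice it did not pass. Adamts10, which binds fibrillin microfibrils, was 1.38-fold lower in the endothelial cells of tumor-bearing mice (adjusted p = 0.0268). Adamts14, another procollagen propeptidase, was 1.51-fold lower (adjusted p = 0.0196) and Adamts8 1.32-fold lower (adjusted p = 0.0410) in endothelial cells of tumor-free mice. Adamts8 lay above the array median on 3 arrays and Adamts14 on 5, all of osteoblasts, so these differences are set against dim values. Adamts10 did not pass without osteoblast replicate 2 or 3 or any 1 endothelial array of tumor-bearing mice (adjusted p up to 0.114), nor Adamts14 without osteoblast replicate 3 or any 1 endothelial array of tumor-free mice (up to 0.0592). Adamts8 did not pass without osteoblast replicate 1 or 3 or any 1 endothelial array of tumor-free mice, or without osteoblast replicate 2 or endothelial replicate 3 of tumor-bearing mice (up to 0.114). Under settings other than leaving out an array, Adamts8 passed in 3 of 9, Adamts14 in 6 of 9 and Adamts10 in 8 of 10, with adjusted p up to 0.171, 0.0744 and 0.0608.

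Of the inhibitors, Timp1 had the widest difference between the cell types among all members in tumor-bearing mice. It read 5.78, 5.31 and 4.99 in the endothelial cells of tumor-bearing mice and 10.36, 10.58 and 10.47 in osteoblasts of those mice, 34.5-fold lower (-5.11 ± 0.44, adjusted p = 1.84e-05). In tumor-free mice it read 5.99, 6.08 and 6.11 in endothelial cells and 10.09, 9.59 and 7.90 in osteoblasts, 8.77-fold lower (-3.13 ± 0.44, adjusted p = 0.000610) and 13.7-fold lower without osteoblast replicate 3. Timp4 leaned the other way. In tumor-bearing mice it read 10.05, 9.52 and 10.18 in endothelial cells and 7.33, 6.70 and 6.91 in osteoblasts, 7.66-fold higher (2.94 ± 0.71, adjusted p = 0.0160). That call ended when single arrays of tumor-bearing mice were left out (osteoblast replicate 2 or 3, endothelial replicate 1 or 3, adjusted p up to 0.0630). In tumor-free mice it did not pass (1.84 ± 0.71, adjusted p = 0.0689).

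Timp3, the inhibitor that binds to matrix and also blocks ADAMTS aggrecanases, was 3.53-fold higher in endothelial cells of tumor-free mice (1.82 ± 0.39, adjusted p = 0.00677), a call that ended with only the groups compared (0.0570). In tumor-bearing mice the difference was -0.05 ± 0.39 (adjusted p = 0.970). Timp2, which pairs with Mmp14 in activating Mmp2, passed in neither comparison. It read 8.30, 8.41 and 8.68 in endothelial cells and 8.80, 8.88 and 8.20 in osteoblasts of tumor-bearing mice, and 8.40, 8.66 and 8.54 in endothelial cells and 8.27, 8.81 and 9.28 in osteoblasts of tumor-free mice. Of the 4 Timp genes, 3 lie inside synapsin genes in the RefSeq gene table, Timp1 in Syn1, Timp3 in Syn3 and Timp4 in Syn2.

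In osteoblasts of tumor-bearing mice 3 of the 28 tested members rose and 0 fell. They were Timp3, Adamts3 and Adamts1, an inhibitor and a pair of enzymes. Of all genes tested 4.59% passed in that comparison and 4.01% passed as higher, and a count of 3 is too small to set apart from that share. The median over all 44 members was -0.12, close to the -0.14 over all genes. With the 6 osteoblast arrays fitted alone these 3 did not pass (adjusted p of 0.131 to 0.190), and without the tumor-free arrays numbered 1 of both cell types 5 members did, with Timp1 and Timp4 added. None of the 13 Mmp genes tested passed by limma, and 3 of them had an unadjusted p under 0.05, as had 8 of all 28 members and 3037 of 12430 genes.

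**Figure D2:**
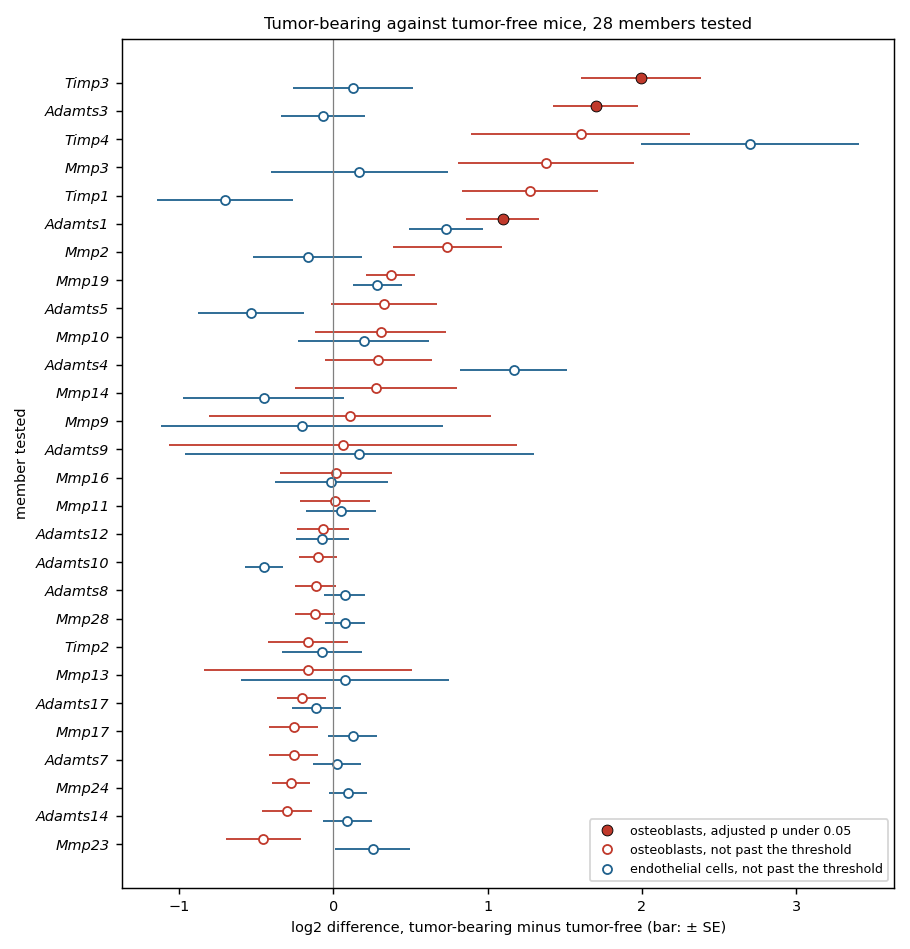
Log2 difference of tumor-bearing minus tumor-free mice (x axis, bar ± SE) for each of the 28 tested members (y axis), in osteoblasts (red) and in endothelial cells (blue), with filled points past the threshold. Timp3, Adamts3 and Adamts1 are the filled points, all in osteoblasts, and Timp4 in endothelial cells lies farthest right.

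Timp3 read 10.54, 10.98 and 10.72 in osteoblasts of tumor-bearing mice, against 9.82, 7.80 and 8.62 in those of tumor-free mice. The groups did not overlap, and the tumor-bearing arrays lay at the level of the endothelial ones, which read 10.37 to 10.82. The rise was 3.98-fold (1.99 ± 0.39 SE, limma adjusted p = 0.0207). The 250 bases before its start (GRCm38.p6, chr10:86300162-86300411, plus strand) hold a GC box, in capitals, and no TATAAA or TGANTCA, and they are shown with those of the other members that rose.
Timp3: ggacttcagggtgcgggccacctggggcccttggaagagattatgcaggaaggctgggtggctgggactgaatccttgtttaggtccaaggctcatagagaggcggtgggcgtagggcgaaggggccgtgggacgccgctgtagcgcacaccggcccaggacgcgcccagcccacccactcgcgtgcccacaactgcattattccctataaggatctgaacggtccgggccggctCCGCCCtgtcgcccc
The call ended without tumor-bearing osteoblast replicate 2 (adjusted p = 0.0899) or tumor-free osteoblast replicate 3 (adjusted p = 0.0510).

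Adamts3 read 7.42, 8.51 and 7.83 in osteoblasts of tumor-bearing mice and 6.00, 5.95 and 6.72 in those of tumor-free mice. Again no array of one group reached the other. The rise was 3.25-fold (1.70 ± 0.27, adjusted p = 0.00989), and it passed in 12 of 12 fits with 1 array left out. In endothelial cells the gene read 6.25, 6.16 and 6.15 in tumor-bearing and 6.13, 6.23 and 6.40 in tumor-free mice. The difference was -0.07 ± 0.27, with a 95% interval from -0.67 to 0.53. That SE and interval rest on the variance over all 4 groups. The SD was 0.055 and 0.13 in endothelial cells of tumor-bearing and tumor-free mice, and 0.55 and 0.43 in osteoblasts. The window before the start of Adamts3 is rich in C and G and holds 1 GC box (GRCm38.p6, chr5:89883335-89883584, minus strand).
Adamts3: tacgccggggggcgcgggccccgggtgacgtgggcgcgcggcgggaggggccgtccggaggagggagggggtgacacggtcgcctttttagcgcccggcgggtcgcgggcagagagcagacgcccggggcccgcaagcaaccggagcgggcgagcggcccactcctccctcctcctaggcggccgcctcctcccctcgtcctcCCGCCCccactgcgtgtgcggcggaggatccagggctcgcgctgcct
The array carries 16 probe sets for Adamts3, and the brightest over all arrays was used. Of the other 15, 14 were higher in osteoblasts of tumor-bearing mice and 7 had groups that did not overlap. Their differences ran from -0.19 to 2.03, and the median over all 16 was 1.18. With the mean of the 16 probe sets in place of the brightest, the rise was 1.12 and did not pass (adjusted p = 0.0690). In endothelial cells the differences of the 16 probe sets ran from -0.53 to 1.01. Their mean stood there at 4.52 in tumor-bearing and 4.38 in tumor-free mice.

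**Figure D3:**
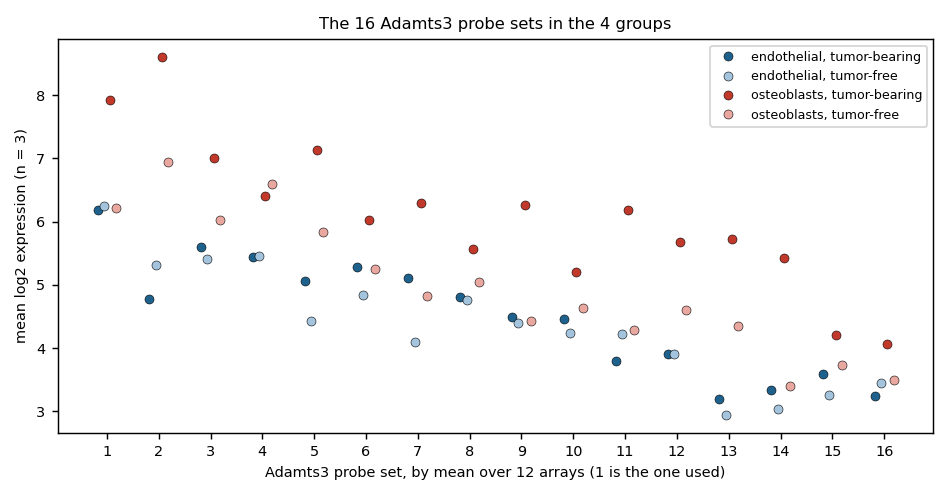
Mean log2 expression (y axis, n = 3 arrays) of each of the 16 Adamts3 probe sets (x axis, brightest first, number 1 being the one used) in the 4 groups. Osteoblasts of tumor-bearing mice are above those of tumor-free mice on 15 of the 16, and the exception is probe set 4.

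Adamts1 read 9.54, 9.24 and 9.19 in osteoblasts of tumor-bearing mice and 8.51, 7.97 and 8.20 in those of tumor-free mice, a 2.14-fold rise (1.10 ± 0.24, adjusted p = 0.0313) between groups that did not overlap. The call ended without any 1 tumor-bearing osteoblast array, without tumor-free osteoblast replicate 2 or 3, and without tumor-bearing endothelial replicate 1 or 2 (adjusted p up to 0.0933). It also ended with quantile normalization (0.0535) and with weights per group (0.167). The window before its start holds 1 match to TATAAA and 3 GC boxes (GRCm38.p6, chr16:85803114-85803363, minus strand), and is the only one among the 30 members with both of these motifs.
Adamts1: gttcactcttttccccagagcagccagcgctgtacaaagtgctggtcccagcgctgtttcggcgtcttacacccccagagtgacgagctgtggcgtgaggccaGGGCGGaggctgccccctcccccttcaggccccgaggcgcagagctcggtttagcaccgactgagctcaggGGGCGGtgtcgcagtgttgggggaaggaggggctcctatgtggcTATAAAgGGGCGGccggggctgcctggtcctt
Immediate early genes, which answer within minutes to stimulation and to tissue dissociation, moved with these genes. The mean over 10 of them was 9.64, 9.72 and 9.59 on the tumor-bearing and 9.16, 8.57 and 7.99 on the tumor-free osteoblast arrays, and 2 of the 10 rose. Means of 7 smooth muscle and pericyte markers were 8.13, 7.96 and 7.04 on the tumor-bearing and 6.54, 6.16 and 6.10 on the tumor-free osteoblast arrays, and 3 of the 7 rose. Means of 12 chondrocyte markers were 9.13, 10.05 and 10.01 on the tumor-bearing and 9.36, 8.23 and 6.60 on the tumor-free osteoblast arrays, and 2 of the 12 rose. The part of these lists in the rises of Timp3, Adamts3 and Adamts1 was not tested.

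Timp1 and Timp4 were higher on every tumor-bearing osteoblast array than on any tumor-free one, but did not pass. Timp1 differed by 1.28 ± 0.44 (adjusted p = 0.117) by 1.73 (adjusted p = 0.0192) without tumor-free replicate 1 and by 0.63 (adjusted p = 0.168) without tumor-free replicate 3. The window before its start is shown because it had the widest cell type difference of the members in tumor-bearing mice. It holds 1 GC box (GRCm38.p6, chrX:20869916-20870165, plus strand).
Timp1: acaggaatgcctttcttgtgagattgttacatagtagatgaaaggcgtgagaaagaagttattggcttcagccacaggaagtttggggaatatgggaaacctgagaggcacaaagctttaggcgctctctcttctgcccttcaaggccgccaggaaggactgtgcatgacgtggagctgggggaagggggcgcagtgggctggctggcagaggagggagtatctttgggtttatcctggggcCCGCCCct
Timp4 read 7.33, 6.70 and 6.91 in osteoblasts of tumor-bearing mice and 6.42, 5.07 and 4.64 in those of tumor-free mice (1.60 ± 0.71, adjusted p = 0.194). Mmp3 differed by 1.38 ± 0.57 (adjusted p = 0.172) with overlapping groups, and by 2.20 (adjusted p = 0.0141) without tumor-bearing replicate 3. Groups did not overlap for 8 of the 28 members, 5 of them higher and 3 lower, beside 24.7% of all genes tested.

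**Figure D4:**
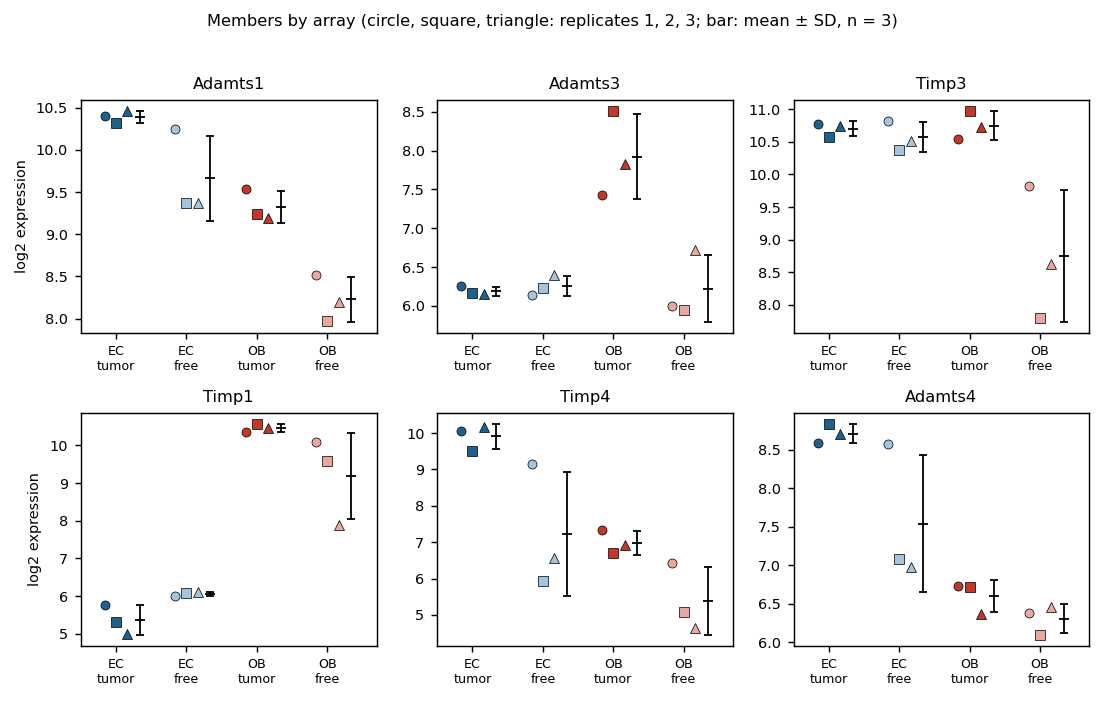
Log2 expression (y axis) of 6 members on each of the 12 arrays, with endothelial cells (EC) and osteoblasts (OB) of tumor-bearing and tumor-free mice on the x axis, symbols for replicates 1, 2 and 3 and bars for mean ± SD (n = 3). Timp3, Adamts3 and Adamts1 separate the osteoblast groups, as do Timp1 and Timp4, which did not pass the threshold there. In tumor-free endothelial cells replicate 1 lies above the other replicates for Adamts1, Timp4 and Adamts4.

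For Mmp13, Mmp16 and Mmp2, the Mmp genes with the widest differences between cell types, and for Mmp14, tumor-free replicate 1 was the lowest osteoblast array. Mmp13 differed by -0.16 ± 0.67 (adjusted p = 0.900), with a 95% interval from -1.64 to 1.32. Its tumor-free replicate 1, at 8.97, lay below every tumor-bearing array, and replicates 2 and 3, at 11.50 and 11.64, lay above every one. Mmp14, Mmp2 and Mmp16 were likewise lowest on that array among the 6 osteoblast arrays, at 6.53, 7.56 and 6.88. Mmp14 differed by 0.28 ± 0.52 (adjusted p = 0.770), Mmp2 by 0.74 ± 0.35 (adjusted p = 0.221) and Mmp16 by 0.02 ± 0.37 (adjusted p = 0.982). Without that array the differences were -1.03 for Mmp13, -0.49 for Mmp14, 0.29 for Mmp2 and -0.38 for Mmp16, and none of these passed (adjusted p of 0.181 to 0.470). Mmp2 passed without tumor-free replicate 2 (1.15, adjusted p = 0.0426). Adamts9, which is named after its values were seen, spread most, with 8.67, 9.12 and 6.91 on the tumor-bearing and 4.84, 10.51 and 9.16 on the tumor-free arrays. On tumor-free replicate 1 the osteoblast and macrophage markers were low as well, while the mean over 12 chondrocyte markers was the highest of the 3 tumor-free arrays. The part of these markers was not tested.

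Mmp8, the collagenase of neutrophils, was dim and not tested. It read 5.26, 4.06 and 3.31 in osteoblasts of tumor-bearing mice and 3.72, 5.66 and 4.96 in those of tumor-free mice. Mmp8 and Mmp9 were high on the same osteoblast arrays, namely tumor-bearing replicate 1 and tumor-free replicates 2 and 3. The mean over 11 neutrophil markers was 6.23, 6.14 and 5.19 on the tumor-bearing and 5.53, 7.18 and 6.93 on the tumor-free osteoblast arrays. That over 11 macrophage markers was 7.20, 6.79 and 5.11 on the tumor-bearing and 5.17, 8.48 and 8.24 on the tumor-free arrays, and that over 7 osteoclast markers was 5.27, 5.24 and 4.88 on the tumor-bearing and 5.04, 5.83 and 6.11 on the tumor-free arrays. Their part in the Mmp8 and Mmp9 values was not tested. Mmp9 differed by 0.11 ± 0.91 between tumor-bearing and tumor-free mice in osteoblasts (adjusted p = 0.953), with a 95% interval from -1.90 to 2.12. The difference was -1.05 without tumor-bearing replicate 1 and -0.76 without tumor-free replicate 1. It was 0.49 and 0.89 without tumor-bearing replicates 2 and 3 in turn, and 0.46 and 0.64 without tumor-free replicates 2 and 3. The sign of the Mmp9 difference thus depended on the array left out.

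**Figure D5:**
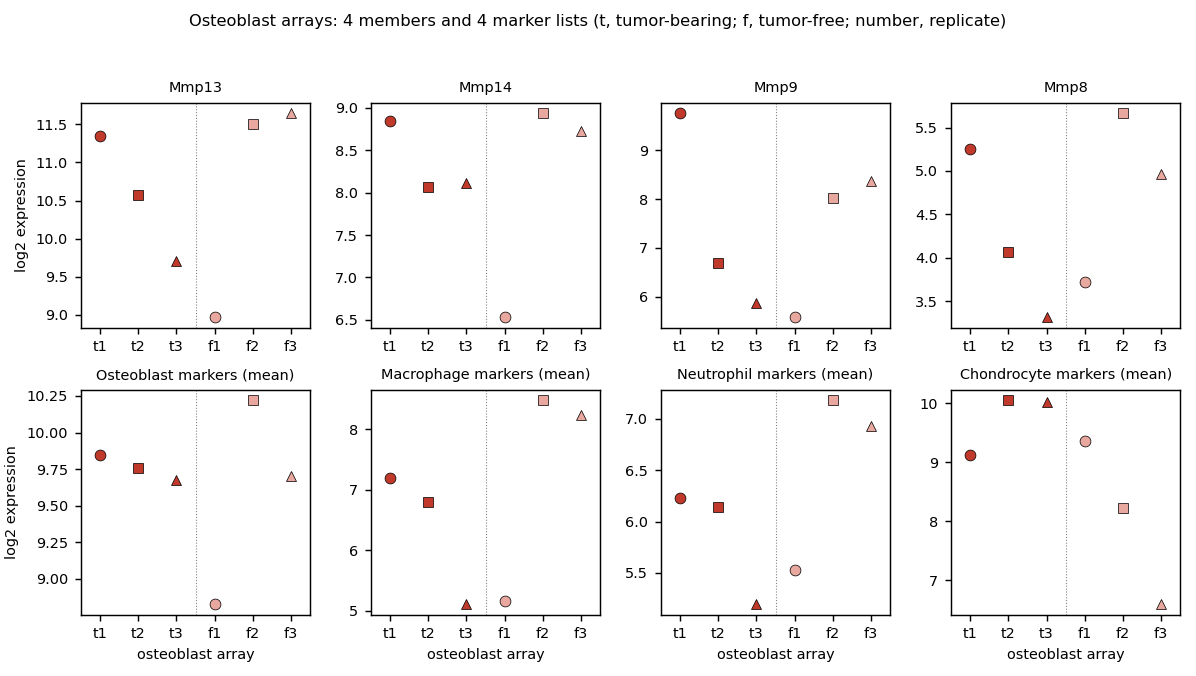
Log2 expression (y axis) of Mmp13, Mmp14, Mmp9 and Mmp8 and mean log2 expression of 4 marker lists on the 6 osteoblast arrays (x axis; t is tumor-bearing, f is tumor-free, the number is the replicate). Tumor-free replicate 1 is lowest for Mmp13, Mmp14 and Mmp9 and for the osteoblast marker mean of 8.82.

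In endothelial cells 0 of the 28 tested members passed between tumor-bearing and tumor-free mice by limma, and 4 had an unadjusted p under 0.05. Of all genes tested 0.0241% (3 of 12430) passed, and 861 had an unadjusted p under 0.05. Groups did not overlap for 8 of the 28 members, 5 higher and 3 lower, beside 18.8% of all genes. The largest difference among members was that of Timp4, at 10.05, 9.52 and 10.18 in tumor-bearing and 9.15, 5.94 and 6.56 in tumor-free mice (2.70 ± 0.71, adjusted p = 0.360). Tumor-free replicate 1 lay close to the tumor-bearing arrays. Adamts4 had the same order, at 8.58, 8.84 and 8.71 in tumor-bearing and 8.57, 7.08 and 6.98 in tumor-free mice (1.17 ± 0.35, adjusted p = 0.445).

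Adamts1 read 10.41, 10.32 and 10.46 in the endothelial cells of tumor-bearing mice and 10.25, 9.37 and 9.37 in those of tumor-free mice (0.73 ± 0.24, adjusted p = 0.502). For all 3 genes tumor-free replicate 1 was thus the high one. The immediate early genes had the same order there, with means of 9.66, 9.67 and 9.60 in tumor-bearing and 9.63, 8.71 and 8.61 in tumor-free mice. Their part was not tested. Without that replicate Timp4 (3.67, adjusted p = 0.0117) and Adamts4 (1.68, adjusted p = 0.00757) passed. Adamts10 was the member with the lowest p among those that were lower, at 6.05, 6.10 and 5.98 in tumor-bearing and 6.52, 6.55 and 6.41 in tumor-free mice (-0.45 ± 0.12, adjusted p = 0.382). Adamts5 read lower on all tumor-bearing arrays too, by -0.53 ± 0.34 (adjusted p = 0.895).

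Whether the tumor difference itself was unequal in the cell types was tested as the difference in osteoblasts minus that in endothelial cells. By limma 0 of the 28 members passed, 3 had an unadjusted p under 0.05, and 0.209% of all genes (26) passed. Adamts3 came closest (1.77 ± 0.39, adjusted p = 0.0827). Its rise in osteoblasts and its value near 0 in endothelial cells, both on the probe set used, are thus not shown to differ. Timp1 (1.98 ± 0.62, adjusted p = 0.185) and Timp3 (1.86 ± 0.55, adjusted p = 0.170) followed. All 3 passed without tumor-free osteoblast replicate 1. The comparisons share arrays, since each group enters more than 1 of them.

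Of the remaining tested members, Adamts7, Adamts12, Adamts17, Mmp10, Mmp11, Mmp17, Mmp19, Mmp24 and Mmp28, none passed in any comparison. Mmp11, stromelysin-3, read 5.31, 5.78 and 5.45 in endothelial cells and 6.18, 5.82 and 5.43 in osteoblasts of tumor-bearing mice, and 5.48, 5.29 and 5.61 in endothelial cells and 5.43, 6.00 and 5.97 in osteoblasts of tumor-free mice, which is close to the array medians of 5.21 to 5.41. The 16 untested members lay between 2.44 and 5.78 on all arrays, 9 of them above the array median on 0 arrays and 7 on 1 or 2. They are Adamts6, Adamts13, Adamts15, Adamts16, Adamts18, Adamts19, Adamts20, Mmp1a, Mmp1b, Mmp7, Mmp8, Mmp12, Mmp20, Mmp21, Mmp25 and Mmp27. Among them Adamts13, which cuts von Willebrand factor, read 4.72, 4.80 and 4.71 in endothelial cells of tumor-bearing and 4.69, 5.05 and 4.69 in those of tumor-free mice. Mmp12, macrophage elastase, stayed between 4.03 and 4.90 on the 12 arrays. A dim value on an array is no proof that a gene is off.

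The genes around these enzymes were followed through lists, chosen with earlier results of these data known. A list count or median set beside that of all genes is thus a description and no test of the list. Of 18 regulators and activators of metalloproteinases 16 were on the array and 15 were tested. In osteoblasts of tumor-bearing mice 4 of them rose and 0 fell, beside 4.01% of all genes tested that passed as higher, with a list median of 0.61 against -0.001 over all genes tested. Reck, a membrane-anchored inhibitor of metalloproteinases, rose 2.37-fold (adjusted p = 0.0128). Plau, urokinase, which starts the plasmin cascade that activates metalloproteinase precursors, rose 3.69-fold (adjusted p = 0.0128). Cd44, a hyaluronan receptor that can hold metalloproteinases at the cell surface, rose 2.61-fold (adjusted p = 0.00967), and Cav1, the main protein of caveolae, 6.09-fold (adjusted p = 0.00412). With the 6 osteoblast arrays fitted alone these 4 did not pass (adjusted p of 0.103 to 0.131), nor did any other gene by limma, while 1820 of 12430 had an unadjusted p under 0.05. The immediate early and the smooth muscle and pericyte means given above were higher on the same arrays, and their part was not tested. In endothelial cells 0 of the 15 passed between tumor-bearing and tumor-free mice, beside 0.0241% of all genes.

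Against osteoblasts, endothelial cells of tumor-bearing mice had 1 regulator higher (Cav1) and 5 lower. In tumor-free mice 2 were higher (Cav1 and Plau) and 4 lower. Of all genes tested 8.13% were higher and 6.79% lower in tumor-bearing mice, and 18.2% higher and 12.7% lower in tumor-free mice. Lrp1, the receptor that clears metalloproteinases and TIMPs from the cell surface, was 6.30-fold lower in tumor-bearing and 5.31-fold lower in tumor-free mice. Among 17 tested genes for other metalloproteases and ADAMTS-like proteins, 1 was higher and 4 lower in the endothelial cells of tumor-bearing mice, and 5 were higher and 8 lower in those of tumor-free mice. The share called over all genes was larger in tumor-free mice too, at 31.0% against 14.9% in tumor-bearing mice. Adam15 was higher in both, at 2.14-fold and 3.08-fold. Phex, an endopeptidase of osteoblasts and osteocytes, and Fap, a serine protease of stromal cells, were lower in both. In osteoblasts 0 of these 17 passed between tumor-bearing and tumor-free mice, beside 4.59% of all genes.

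Among 17 tested matrix substrates, 3 rose in osteoblasts of tumor-bearing mice and 0 fell. Of all genes tested 4.01% passed as higher there. Col2a1, type II collagen of cartilage, rose 3.79-fold (adjusted p = 0.0194), fibronectin (Fn1) 2.16-fold (adjusted p = 0.0294) and Thbs1, thrombospondin-1, 2.15-fold (adjusted p = 0.0343). Col2a1 is also 1 of the 12 chondrocyte markers, whose means are given above. Aggrecan (Acan), which Adamts4 and Adamts5 cut, averaged 4.72 in endothelial cells, which is dim, and 10.97 in osteoblasts (tumor-bearing mice, adjusted p = 0.00261). Over all 17 substrates 5 were higher and 10 lower in the endothelial cells of tumor-bearing mice, and 4 were higher and 11 lower in those of tumor-free mice. Of all genes tested 8.13% were higher and 6.79% lower in the first comparison, and 18.2% higher and 12.7% lower in the second. Of 7 tested genes for cathepsins and their inhibitor cystatin C, 1 rose and 0 fell in osteoblasts: Ctsl, cathepsin L, rose 1.51-fold in those of tumor-bearing mice (adjusted p = 0.0465). A count of 1 in 7 is too small to set apart from the 4.01% of all genes.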

How the data were processed

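RNA of the sorted cells was amplified as cDNA and hybridised, with biotin label, to mouse gene arrays, per the labels' protocols. The authors deposited a table of 34760 probe sets by 12 arrays in log2 units, made with affy per the submitters' processing notes. Its version, background correction and normalization are not stated in the sources used here. The groups come from the sample titles, and 0 of 66 pairs of arrays held identical values. Arrays of 1 group are labelled as biological replicates, without saying that they came from separate mice, so p-values rest on the spread between arrays, which may be technical. A probe set named a gene if its annotation gave 1 symbol, and the brightest over 12 arrays stood for a gene (3 members, Adamts3, Adamts9 and Adamts17, have several). Mmp15 and Adamts2 are not analysed here.

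A gene was tested if it lay above the array median on at least 3 arrays (12430 genes, 62.3%). Differences were fitted with limma 3.58.1 (R 4.3.3), 1 mean per group over all 12 arrays, two-sided. The variance of a gene was estimated over all 4 groups together. An SE, interval or p-value thus does not rest on the spread of the compared groups alone. By the median SD of a tested member, endothelial arrays spread less than osteoblast arrays. P-values of all tested genes were adjusted together (Benjamini-Hochberg), with 0.05 as the threshold. A fold is 2 raised to the log2 difference. The script was tested on simulated data. Motifs were searched in RefSeq windows of GRCm38.p6; the files name no build.

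The members and lists were chosen with earlier results of these data known. Named members are those past the threshold in any comparison, a fixed list of well-known ones, and the 3 with the smallest p and the 3 with the largest difference in each comparison; Mmp10 and Adamts9 were added after their values were seen. Over all tested genes, deviations of same-numbered arrays of different groups correlated weakly (-0.26 to 0.095 over 12 pairs, -0.046 to 0.095 between the cell types). Of the 12, 5 matched best their own number. Between the cell types, endothelial replicates 1 and 2 matched best the osteoblast array of their number, in tumor-bearing and in tumor-free mice. Replicate 3 did not in either. As the correlations were weak, the numbers were not taken as pairs, and a replicate block was fitted as an alternative. Some genes did deviate together: the immediate early mean was highest on replicate 1 among tumor-free arrays of endothelial cells (9.63) and of osteoblasts (9.16). Alternatives were quantile normalization, median centring, no filter or one at the 70th percentile, averaging a gene's probe sets, limma's trend and robust options, weights per array or per group, the replicate block, only the groups compared, and leaving out each array. Leaving out the tumor-free arrays numbered 1, or 2 and 3, was chosen after seeing the data.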

Additional observations from a re-analysis of the deposited data

Results flagged for a closer look

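Timp1 was singled out because every osteoblast array of tumor-bearing mice lay above every one of tumor-free mice, while in endothelial cells every array of tumor-bearing mice lay below. The log2 difference was 1.28 in osteoblasts and -0.70 in endothelial cells, and the difference between these was 1.98 ± 0.62 (SE), which did not pass (limma adjusted p = 0.185). The endothelial values of tumor-bearing mice, 5.78, 5.31 and 4.99, were near the array medians of 5.21 to 5.41. Without tumor-free osteoblast replicate 3 the difference in osteoblasts was 0.63 (adjusted p = 0.168).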

How the results depend on the processing

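Over 24 other settings 2241 values of the named members were recomputed. None of the 25 member differences past the threshold changed sign; their values stayed past it 523 times and fell short 74 times, and values short of it passed 36 times. The counts of 11 members in the cell type comparisons stayed within 1.5 times under every setting. In osteoblasts the count of 3 members became 0 with only the groups compared and 5 without the tumor-free arrays numbered 1, and ranged from 1 to 4 with 1 array left out (1 without tumor-bearing replicate 2 or tumor-free replicate 3, 4 without tumor-free replicate 1). In endothelial cells the count of 0 became 4 with weights per array (Adamts1, Adamts4, Adamts10 and Timp4) and 3 without the tumor-free arrays numbered 1 (Adamts1, Adamts4 and Timp4), and ranged from 0 to 2. For the difference between cell types the count of 0 became 2 with weights per array (Adamts3 and Timp3) and 2 without the tumor-free arrays numbered 1 (Adamts4 and Timp3), and ranged from 0 to 3. The cause of these moves was not tested. With the tumor-free arrays numbered 2 and 3 left out, which leaves 1 tumor-free array a group, Timp3 (0.92, adjusted p = 0.0564) and Adamts1 (0.81, adjusted p = 0.0661) did not pass in osteoblasts, while Adamts9, Mmp2 and Mmp14 did. There the Adamts4 difference between cell types turned to 0.082, against -0.88 with all arrays, and the Mmp11 difference of endothelial cells against osteoblasts in tumor-free mice to 0.048, against -0.34. The Mmp14 difference in the same comparison, 0.67, ranged from -0.10 (without tumor-free osteoblast replicate 1) to 1.10 with 1 array left out, and was 1.85 (adjusted p = 0.0267) without the tumor-free arrays numbered 2 and 3. With the replicate block the counts were 3, 0, 0, 11 and 10 in the 5 comparisons. In the tumor-free cell type comparison the median shift of a tested gene was 0.15 under median centring and -0.11 under quantile normalization. Over all genes the count past the threshold ranged from 0 (only the groups compared) to 1573 (without tumor-free osteoblast replicate 1) around 570 in osteoblasts, from 0 to 449 around 3 in endothelial cells, from 0 to 545 around 26 for the difference, from 1325 to 3733 around 1854 between cell types in tumor-bearing mice and from 1911 to 6564 around 3850 in tumor-free mice. Beside these, 88 values within 1 SE of 0 changed sign. How far the signals lay above background was not used here.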
